A study of Caenorhabditis elegans with 15 samples.

Results

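A group of 10 genes of the *Caenorhabditis elegans* oocyte and its eggshell was followed across young adults of 2 strains grown at 2 temperatures: *rme-2*, *oma-1*, *oma-2*, *puf-3*, *puf-5*, *puf-11*, *cbd-1*, *egg-1*, *egg-2* and *egg-3*. They were chosen by name, for what they do in the oocyte, with earlier results of these data known. They are 10 of the 21882 genes in the deposited count tables. All 10 were detected in every library and passed the filter on low counts in every comparison. Polyadenylated RNA was sequenced from whole animals of N2, the laboratory wild type, and of *fbxa-215(syb4404)* mutants, a single outcrossed line that lacks the coding sequence of the F-box gene *fbxa-215*. Larvae of both strains hatched from cultures kept at 20 °C and were then grown either at 20 °C and collected 48 h after plating (4 libraries of each strain), or at 25 °C and collected about 36 h after plating (4 libraries of N2 and 3 of mutants). The study asked whether loss of *fbxa-215* alters gene expression.

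In the *C. elegans* gonad, oocytes grow in single file, fill with yolk and with maternal RNA and protein, and are fertilised as they pass into the spermatheca. The growing oocyte keeps many maternal mRNAs silent with RNA-binding proteins until it matures. Fertilisation then sets off egg activation, in which the oocyte surface is remodelled and a layered eggshell of vitelline, chitin and proteoglycan material is laid down around the zygote. The 10 genes cover these steps: yolk uptake (*rme-2*), silencing and maturation (the *oma* and *puf* genes), the oocyte coat (*cbd-1*), and fertilisation and activation (the *egg* genes).

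The 15 libraries held between 10842744 and 28391866 counts, and mutant replicate 4 at 20 °C was the deepest by far (the next had 16150451). The deleted gene had 1364 to 2297 counts in the 8 N2 libraries and 0 to 2 in the 7 mutant libraries, as labelled. The 10 genes together took 0.263% to 0.482% of all counts of a library. The study's methods speak of biological replicates, but the labels do not say that they came from separate cultures, so p-values measure the spread between these samples. Temperature, hours after plating and growth batch cannot be told apart. In RNA from whole animals, fewer oocytes and less RNA per oocyte cannot be told apart either.

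Per length, in TPM (transcript level scaled by exon length and library, mean in N2 at 20 °C, n = 4), *cbd-1* was highest at 484 ± 75.8 (SD), followed by *oma-2* (331), *puf-5* (285), *egg-1* (263), *rme-2* (256), *puf-3* (222), *oma-1* (198), *puf-11* (166), *egg-2* (105) and *egg-3* (75.7). Neighbours in this order overlapped between libraries, except *puf-11* over *egg-2* and *egg-2* over *egg-3*. The values below are in CPM (counts scaled to the normalised library size), which compare libraries for 1 gene.

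*rme-2* (chromosome IV, 5470026 to 5473174, plus strand, 7 exons, WBcel235) encodes the yolk receptor of the oocyte, a member of the LDL receptor family. At 20 °C its level was 661, 616, 558 and 565 CPM in the N2 libraries and 454, 453, 475 and 434 CPM in the mutants. At 25 °C it was 416, 426, 400 and 482 CPM in N2 and 389, 335 and 309 CPM in the mutants. Every mutant library lay below every N2 library of its temperature, while N2 at 25 °C (431 ± 35.8 CPM, SD, n = 4) overlapped the mutants at 20 °C (454 ± 16.6 CPM, n = 4).

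*oma-1* (chromosome IV, 8888976 to 8890999, plus strand, 6 exons) and *oma-2* (chromosome V, 8029439 to 8031214, plus strand, 6 exons) encode paired CCCH zinc-finger proteins that bind mRNAs in the oocyte and are redundantly required for its maturation. *oma-2* stood at 404, 472, 445 and 346 CPM in N2 and 249, 257, 270 and 305 CPM in mutants at 20 °C. At 25 °C it stood at 219, 208, 202 and 247 CPM in N2 and 217, 213 and 220 CPM in mutants. The strains were thus apart at 20 °C and intermingled at 25 °C. *oma-1* was measured at 260, 327, 335 and 241 CPM in N2 and 207, 209, 206 and 255 CPM in mutants at 20 °C, where mutant replicate 4 lay above the lowest N2 library. At 25 °C it was 201, 182, 183 and 212 CPM in N2 and 194, 232 and 240 CPM in mutants, so that 2 of the 3 mutant libraries were above all N2 libraries. The ratio of *oma-2* to *oma-1* CPM was 1.44 ± 0.092 (SD, n = 4) in N2 and 1.23 ± 0.052 (n = 4) in mutants at 20 °C, and 1.13 ± 0.032 (n = 4) and 0.984 ± 0.12 (n = 3) at 25 °C. In this ratio the strains were apart at 20 °C (1.33 to 1.55 in N2, 1.20 to 1.31 in mutants). They overlapped at 25 °C (1.09 to 1.16 in N2, 0.914 to 1.12 in mutants). Within each strain, the libraries at 20 °C lay above those at 25 °C. The ratio was not tested. Reads that match both genes could have been shared out between them by the quantification.

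*puf-3* (chromosome IV, 13510307 to 13512162, minus strand, 3 exons), *puf-11* (chromosome IV, 6421585 to 6423497, plus strand, 3 exons) and *puf-5* (chromosome II, 8575541 to 8577787, plus strand, 5 exons) encode RNA-binding proteins of the Pumilio family that repress maternal mRNAs during oocyte growth. *puf-3* and *puf-11* are close copies of each other, and *puf-3* lies inside the span of *afmd-2* on the other strand, without exon overlap. *puf-3* was at 354, 310, 300 and 295 CPM in N2 and 246, 254, 270 and 237 CPM in mutants at 20 °C. At 25 °C it was at 259, 252, 247 and 276 CPM in N2 and 233, 184 and 192 CPM in mutants. *puf-5* ranged over 443 to 519 CPM in N2 and 342 to 370 CPM in mutants at 20 °C, and over 341 to 422 and 283 to 323 CPM at 25 °C. *puf-11* ranged over 214.7 to 246 CPM and 182 to 199 CPM at 20 °C, and over 190 to 224 and 171 to 179 CPM at 25 °C. For all 3 genes no mutant library reached the lowest N2 library at either temperature.

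*cbd-1* (chromosome IV, 11372991 to 11377627, plus strand, 10 exons) encodes a protein with chitin-binding domains that sits in the outermost, vitelline layer around the oocyte and egg. It was at 1611, 1830, 1861 and 1357 CPM in N2 and 935, 913, 1005 and 1006 CPM in mutants at 20 °C. At 25 °C it was at 853, 736, 750 and 997 CPM in N2 and 761, 826 and 757 CPM in mutants. The N2 libraries at 20 °C stood above all other libraries, and at 25 °C the mutants lay within the N2 range.

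*egg-1* (chromosome III, 5728180 to 5730159, plus strand, 5 exons) and *egg-2* (chromosome III, 7058527 to 7060583, minus strand, 5 exons) encode similar oocyte membrane proteins with LDL receptor repeats, which together are needed for sperm entry. *egg-1* ranged over 346 to 411 CPM in N2 and 274 to 299 CPM in mutants at 20 °C, and over 262 to 321 and 239 to 264 CPM at 25 °C. *egg-2* ranged over 141 to 164 CPM and 114 to 122 CPM at 20 °C, and over 91.2 to 114 and 80.1 to 96.4 CPM at 25 °C. Both pairs of strains were apart at 20 °C and overlapped at 25 °C. The last exon of *egg-1* overlaps *B0244.9* on the other strand, and these libraries carry no strand.

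*egg-3* (chromosome II, 10882408 to 10884441, minus strand, 6 exons) encodes a protein of the tyrosine phosphatase fold without catalytic activity that holds the egg activation machinery at the oocyte cortex. It was the lowest of the 10 genes, at 128, 111, 91.4 and 114 CPM in N2 and 94.3, 91.9, 99.7 and 81.3 CPM in mutants at 20 °C. At 25 °C it was at 78.2, 76.8, 78.0 and 92.7 CPM in N2 and 78.3, 55.7 and 53.6 CPM in mutants. The strains overlapped at both temperatures, at 25 °C through mutant replicate 1 alone. An exon of *egg-3* overlaps *lurp-1* on the other strand.

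**Figure D1:**
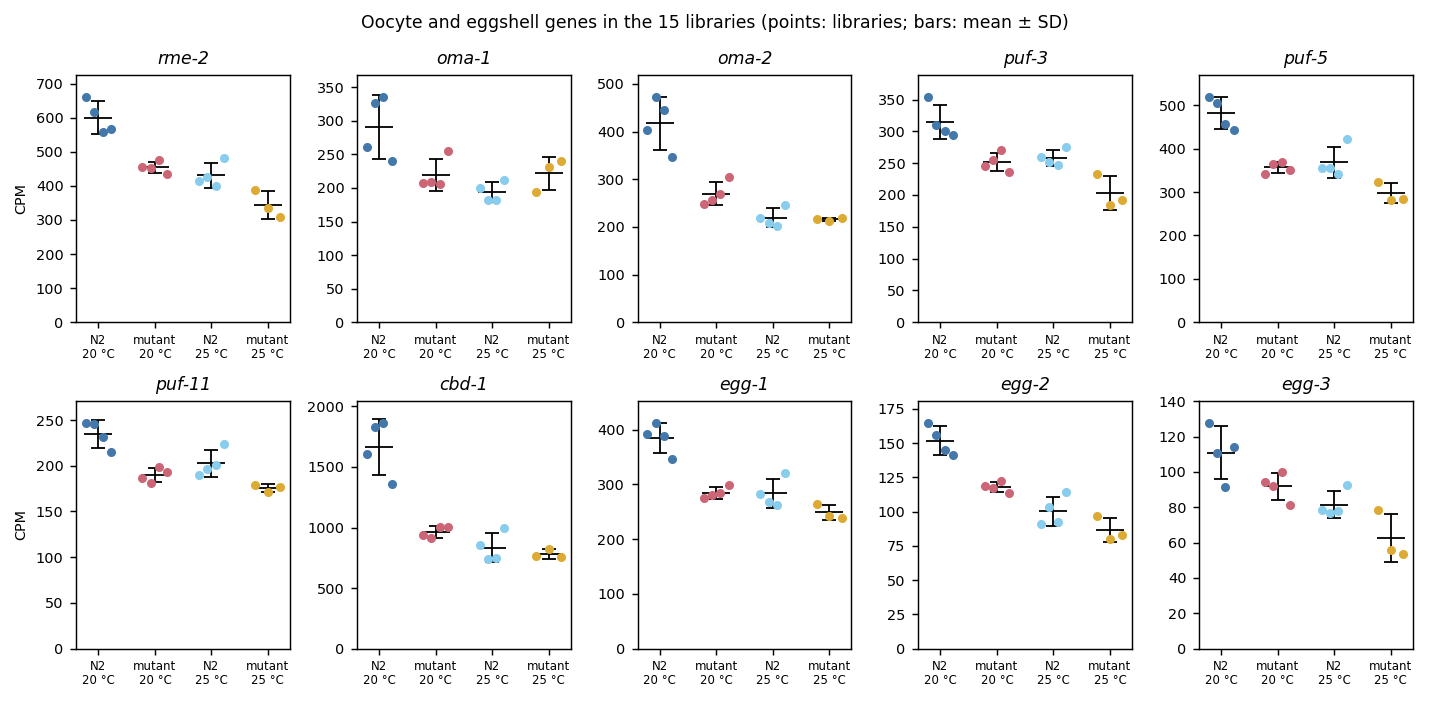
CPM of each of the 10 genes (vertical axes, from 0) in the 4 groups, with a point per library and the mean ± SD as bars. N2 at 20 °C is the highest group for every gene, with *cbd-1* between 1357 and 1861 CPM there and at or under 1006 CPM in all other libraries.

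At 20 °C the mutants had less RNA of the oocyte and eggshell genes than N2. Of the 10 genes, 9 fell at a false discovery rate (FDR, edgeR quasi-likelihood test adjusted over all 13127 genes tested) under 0.05, where 5.77% of all tested genes were lower at this threshold. In 8 of 10 every mutant library lay below every N2 library, which 11.4% of tested genes did. The median log2 fold change of the 10 genes was -0.39, against 0.015 over all tested genes. No change passed 2-fold: 0 of 10 did at FDR under 0.05, 0 at an unadjusted p under 0.05 and 0 with DESeq2, against 1.49% of tested genes.

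The largest fall was that of *cbd-1*, from 1664 ± 233 (SD, n = 4) to 965 ± 47.7 CPM (n = 4), a log2 fold change of -0.77 (SE 0.096, edgeR FDR = 0.00145) or 41.4% less. *oma-2* fell by 34.5% (log2 fold change -0.61, SE 0.097, edgeR FDR = 0.00476). *egg-1* (-0.42, SE 0.065), *puf-5* (-0.42, SE 0.066) and *rme-2* (-0.39, SE 0.068) followed, with edgeR FDRs of 0.00438, 0.00476 and 0.00703. *egg-2* (-0.35, FDR = 0.00714), *puf-3* (-0.31, FDR = 0.0205) and *puf-11* (-0.29, FDR = 0.0145) changed less in the same edgeR fit. *oma-1*, at -0.39 (SE 0.11), passed only narrowly (edgeR FDR = 0.0462), with overlapping groups. *egg-3* did not pass, at -0.26 (SE 0.097, edgeR FDR = 0.0922). In the exact permutation test of log2(CPM + 1), two-sided, the 8 separated genes had p = 0.0286 each, the smallest that 4 against 4 libraries can give, *oma-1* had 0.0571 and *egg-3* 0.114. With each library left out in turn, *rme-2*, *oma-2*, *puf-5*, *cbd-1*, *egg-1* and *egg-2* passed each time, and 6 to 9 of the 10 genes passed in each of the 8 fits (6 without mutant replicate 1 or replicate 2).

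At 25 °C fewer of the genes passed between the strains, although 9 of 10 had a log2 fold change below 0. *puf-3* (log2 fold change -0.35, SE 0.083, edgeR FDR = 0.0174), *puf-5* (-0.31, SE 0.083, FDR = 0.028) and *rme-2* (-0.32, SE 0.087, FDR = 0.0293) were lower in mutants, 3 of 10 against 5.12% of the 13510 genes tested. In 4 of 10, these 3 and *puf-11*, no mutant library reached the N2 range, as in 11.2% of tested genes. None of the 10 passed 2-fold with edgeR at FDR under 0.05, at an unadjusted p under 0.05 or with DESeq2 (0 each), against 1.92% of tested genes. The median log2 fold change was -0.21, against 0.0038 over all tested genes.

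Of the genes that did not pass at 25 °C, *egg-3* had a log2 fold change of -0.38 (SE 0.13), *egg-2* -0.21, *puf-11* -0.21 and *egg-1* -0.19, with edgeR FDRs between 0.0719 and 0.142. With DESeq2 *egg-3* passed as well (-0.39, adjusted p = 0.0287), making 4 of 10. *cbd-1*, with the largest difference at 20 °C, was at -0.09 (SE 0.097, edgeR FDR = 0.551), with 834 ± 121 CPM (n = 4) in N2 and 781 ± 38.7 CPM (n = 3) in mutants. *oma-2* was at -0.02 (SE 0.074, edgeR FDR = 0.896), and *oma-1* was at 0.19 (SE 0.084, edgeR FDR = 0.145). The exact permutation test cannot pass 0.05 with 4 libraries against 3: its smallest two-sided p is 0.0571, which *rme-2*, *puf-3*, *puf-5* and *puf-11* reached. The count of 3 rested on single libraries. It was 0 without N2 replicate 4, mutant replicate 2 or mutant replicate 3, 1 without N2 replicate 2, and 8 without mutant replicate 1 (7 lower, and *oma-1* higher).

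**Figure D2:**
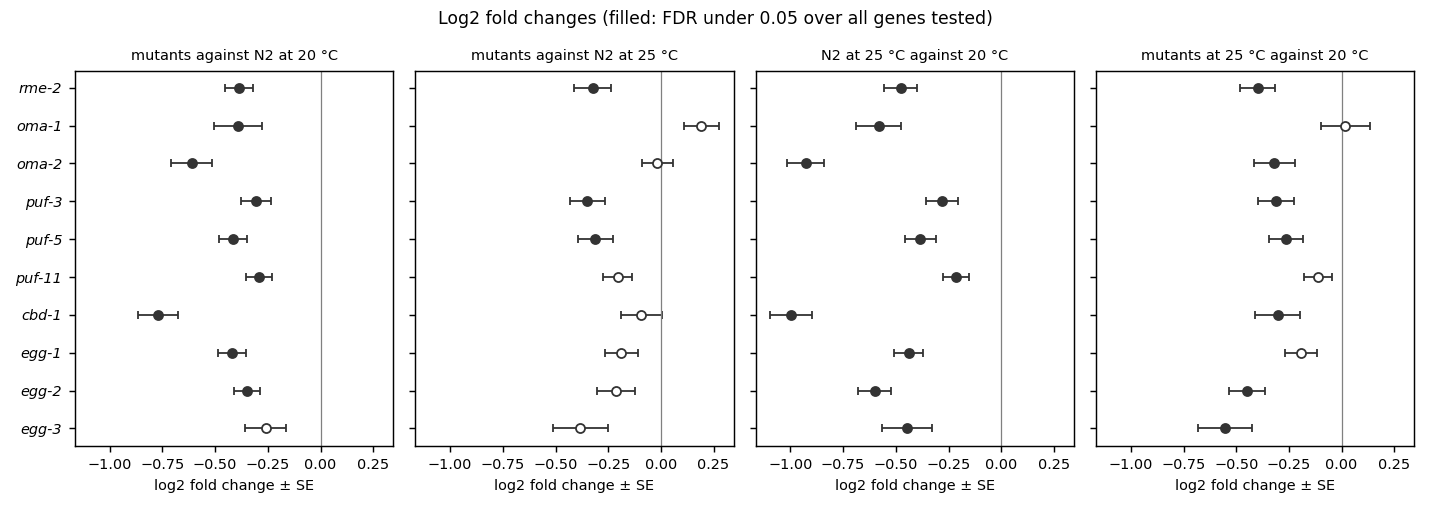
Log2 fold change ± SE (horizontal axis) of each gene in 4 comparisons from edgeR, filled where the FDR was under 0.05. *cbd-1* and *oma-2* lie furthest to the left in mutants against N2 at 20 °C (-0.77 and -0.61) and in N2 at 25 °C against 20 °C (-0.997 and -0.93), and near 0 in mutants against N2 at 25 °C.

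In N2, all 10 genes were lower at 25 °C than at 20 °C. All 10 passed at FDR under 0.05, where 22.1% of the 14000 genes tested were lower, and in 8 of 10 the groups did not overlap, against 20.2% of tested genes (*puf-11* and *egg-3* overlapped). *cbd-1* fell by 49.9%, with a log2 fold change of -0.997 (SE 0.1, edgeR FDR = 8.82e-07), and *oma-2* fell by 47.4% (-0.93, SE 0.089, FDR = 4.46e-07). *egg-2* (-0.60), *oma-1* (-0.58), *rme-2* (-0.48), *egg-3* (-0.45), *egg-1* (-0.44), *puf-5* (-0.38), *puf-3* (-0.28) and *puf-11* (-0.21) had edgeR FDRs from 1.02e-05 to 0.00961. The median was -0.46, against 0.067 over all tested genes. None passed 2-fold with edgeR (0 of 10, and 0 at an unadjusted p under 0.05, against 6.59% of tested genes), but *cbd-1* lay at the edge and passed with DESeq2 (1 of 10) and with relative log expression scaling. Each of the 10 passed the FDR with any library left out. The N2 libraries at 20 °C serve both here and in the comparison of strains at 20 °C, so that the falls of *cbd-1* and *oma-2* in both share these 4 libraries.

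In the mutants, 7 of 10 genes were lower at 25 °C than at 20 °C, against 11.9% of tested genes. *egg-3* changed most (log2 fold change -0.55, SE 0.13, edgeR FDR = 0.00565), then *egg-2* (-0.45, FDR = 0.000858) and *rme-2* (-0.40, FDR = 0.00216). *oma-2* (-0.32), *puf-3* (-0.31), *cbd-1* (-0.30) and *puf-5* (-0.26) had edgeR FDRs from 0.011 to 0.0459. *egg-1* (-0.19, edgeR FDR = 0.0685), *puf-11* (-0.11, FDR = 0.228) and *oma-1* (0.02, FDR = 0.931) did not pass. In 9 of 10, all but *oma-1*, the groups did not overlap, against 13.8% of tested genes. None passed 2-fold with edgeR, at an unadjusted p under 0.05 or with DESeq2 (0 of 10 each), against 3.17% of tested genes. The median was -0.31, against 0.043 over all tested genes. Without mutant replicate 2 or replicate 3 at 25 °C the count of 7 was 3 (*rme-2*, *egg-2* and *egg-3*). *cbd-1* passed narrowly and was lost when any 1 of the 7 mutant libraries was left out (edgeR FDR from 0.0575 to 0.138). It was also lost without N2 replicate 1 at 25 °C (edgeR FDR = 0.0571), with library size alone (0.0863) and with the replicate number as a block (0.101).

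The strain difference itself was compared between temperatures as an interaction, in 1 edgeR fit over the 15 libraries. It passed for *cbd-1* (0.69 on the log2 scale, SE 0.15, FDR = 0.032) and *oma-2* (0.61, SE 0.13, FDR = 0.0336), 2 of 10 against 1.46% of tested genes, the strain difference being smaller at 25 °C. *oma-1* was of the same size but did not pass (0.60, SE 0.16, edgeR FDR = 0.0545). The other genes lay between -0.11 (*egg-3*) and 0.25 (*egg-1*, edgeR FDR = 0.157). For *rme-2* (0.08, SE 0.11), *puf-3* (-0.03, SE 0.11) and *puf-5* (0.12, SE 0.11) no difference between temperatures was detectable. Neither gene passed in 8 of the 15 fits with a library removed, namely without N2 replicate 2 or 3 at either temperature, mutant replicate 1 or 2 at 20 °C, or mutant replicate 2 or 3 at 25 °C. Without N2 replicate 1 at 25 °C only *cbd-1* passed.

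After the mean of each group was taken out, 39 of the 45 pairs of genes were positively correlated over the 15 libraries (median Pearson's r of 0.657), as a description over libraries that share their depth and normalisation. *rme-2*, *puf-3*, *puf-5*, *egg-2* and *egg-3* went together, with r of 0.91 between *rme-2* and *puf-5*. *oma-1*, *oma-2* and *cbd-1* went together as well, with r of 0.87 between *oma-2* and *cbd-1*. Between these sets r ran from -0.61 (*oma-1* and *egg-3*) to 0.52 (*cbd-1* and *puf-5*). *egg-1* and *puf-11* correlated with genes of both, *egg-1* with r of 0.835 to *puf-5* and 0.856 to *oma-2*. The sets were drawn after the values were seen and were not tested. In mutants at 25 °C, replicate 1 was the highest for 7 of the 10 genes (all but *oma-1*, *oma-2* and *cbd-1*) and the lowest for *oma-1*. N2 replicate 4 was the lowest of its group at 20 °C for 8 of the 10 (all but *rme-2* and *egg-3*), and the library numbered 4 of N2 at 25 °C was the highest for all 10 genes.

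**Figure D3:**
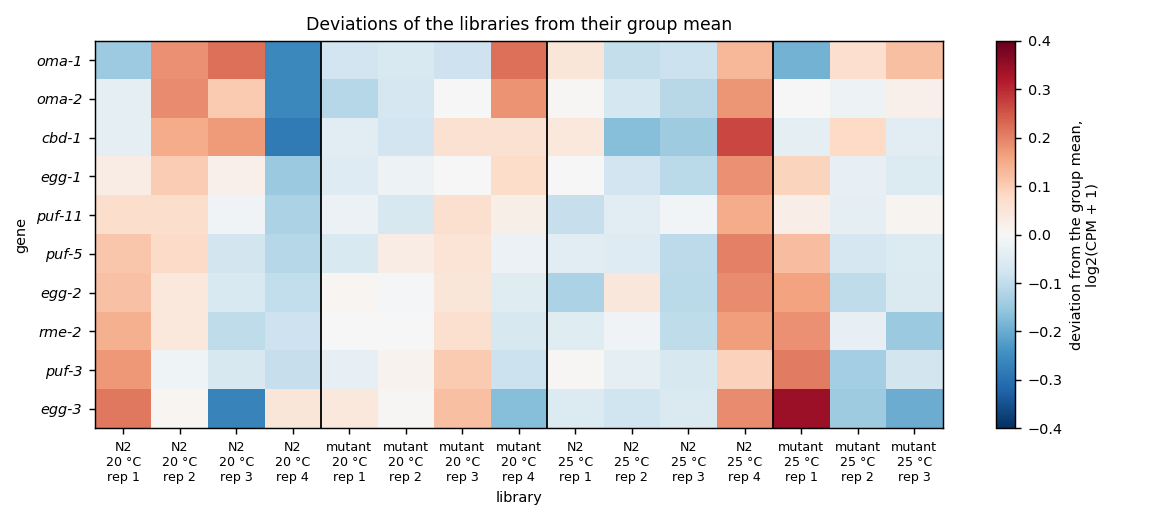
Deviation of each library (columns) from its group mean for each gene (rows), in log2(CPM + 1), red above and blue below the mean. *oma-1* and *egg-3*, at the top and bottom, go opposite ways in mutant replicate 1 at 25 °C and in N2 replicate 3 and mutant replicate 4 at 20 °C, and their deviations have an r of -0.61.

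The genes whose levels most resembled the mean profile of the 10 genes over the 15 libraries, among 8012 genes of at least 10 CPM, were *mrp-4*, an ABC transporter gene (Pearson's r of 0.99), *cpg-2*, which encodes a chitin-binding proteoglycan of the eggshell (0.99), *F14H3.6* (0.981), *ccr-4*, a deadenylase gene (0.979), and the glutamine synthetase gene *gln-6* (0.978). With group means taken out, they were *mrp-4* (0.952), the AAA ATPase gene *cdc-48.1* (0.939), the chitin synthase gene *chs-1* (0.92), *hinf-1* (0.909) and *D1081.7* (0.902).

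Other genes of the eggshell and of egg activation, a list of 13, fell with the 10 genes at 20 °C: 9 of 13 were lower in mutants (median log2 fold change -0.32), against 5.77% of tested genes. *cpg-1*, a second eggshell proteoglycan gene, fell from 1029 ± 161 to 605 ± 38.5 CPM (n = 4 each, log2 fold change -0.75, edgeR FDR = 0.00263), and *egg-6* from 273 to 191 CPM (-0.50, FDR = 0.00265). Without a library, 5 to 10 of the 13 passed (5 without mutant replicate 2, and 6 without N2 replicate 2, N2 replicate 3 or mutant replicate 1). At 25 °C only *cpg-3* passed (-0.54, edgeR FDR = 0.0073), and without mutant replicate 1 there 6 were lower and 1 higher. In N2, 8 of 13 were lower at 25 °C than at 20 °C, against 22.1% of tested genes, led by *cpg-1* (-1.03, edgeR FDR = 4.63e-06). In mutants 3 of 13 were lower (*cpg-2*, *cpg-3* and *gna-2*), against 11.9% of tested genes, and 1 higher (*emb-8*). *cpg-1* was the gene with an interaction past the threshold (0.83), against 4 of 13 with DESeq2 and 0 to 5 without a library. Over all genes, the interaction passed with DESeq2 for 1009 of the 19758 that had any count, and in edgeR for 12 to 1604 without a library. *cpg-2*, *emb-8* and the interaction of *cpg-1* were named after their values were seen, as were *vit-4*, *car-1*, *mex-5* and *snb-1*.

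Of 22 other RNA regulators of the oocyte and germline, 13 were lower in mutants at 20 °C (median -0.36), against 5.77% of tested genes. *puf-7*, another Pumilio family gene, fell from 151 ± 12.9 to 96.0 ± 5.01 CPM (n = 4 each, log2 fold change -0.64, edgeR FDR = 0.000841), and *nos-2*, a Nanos gene, from 80.6 to 53.7 CPM (-0.57, FDR = 0.00303). At 25 °C 0 of 22 passed with edgeR, while 4 were lower and 1 higher at an unadjusted p under 0.05, and 2 were lower with DESeq2. Without mutant replicate 1 there, 2 were lower and 4 higher. In N2, 20 of 22 were lower at 25 °C, against 22.1% of tested genes, among them the Y-box gene *cey-2* (-0.85, edgeR FDR = 6.31e-09) and *spn-4* (-0.78, FDR = 0.000124). In mutants 9 of 22 were lower, against 11.9% of tested genes, led by *cey-3* (-0.72) and *cey-2* (-0.62). *car-1* (0.42) and *mex-5* (0.49) had an interaction past the threshold with edgeR. With DESeq2 15 of 22 did, at an unadjusted edgeR p under 0.05 17 were higher and 1 lower, and 0 to 15 were higher without a library (15 without mutant replicate 4 at 20 °C, 0 without mutant replicate 2 or 3 at 25 °C). Over all genes, the interaction passed with DESeq2 for 1009 of the 19758 that had any count. In edgeR it passed for 1604 of 13962 without mutant replicate 4 at 20 °C. It passed for 16 of 14180 genes without mutant replicate 2 at 25 °C and for 12 of 14195 without replicate 3.

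Of 10 genes of yolk and its uptake, *vit-1* (-0.46, edgeR FDR = 0.00869), *vit-3* (-0.42, FDR = 0.0168) and *vit-4*, vitellogenin genes of the intestine, were lower in mutants at 20 °C. These were 3 of 10, against 5.77% of tested genes. With DESeq2 7 of 10 were lower, and 1 to 5 of the 10 passed in edgeR without a library (1 without N2 replicate 2 or mutant replicate 1 or 2). At 25 °C only *rme-1*, an endocytic recycling gene, passed and was higher (0.24, edgeR FDR = 0.0313). In N2, 6 of 10 were lower at 25 °C than at 20 °C, led by *vit-3* (-0.75, edgeR FDR = 1.3e-05), against 22.1% of tested genes. In mutants 2 of 10 were lower (*vit-3* and *rme-8*), against 11.9% of tested genes.

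Markers of other cells moved beside these genes, and their part in the result was not tested. Of all tested genes, 7.71% were higher in mutants at 20 °C and 6.97% at 25 °C. Of 8 meiotic germ cell genes, 0 passed at 20 °C (edgeR, with 0 at an unadjusted p under 0.05 and 0 with DESeq2), and their summed level was 457 to 511 CPM in N2 and 442 to 467 CPM in mutants. At 25 °C 1 of 8 was lower (*htp-1*, -0.43), with sums of 428 to 445 and 399 to 410 CPM. Of 49 sperm genes, 45 were tested, with 2 higher in mutants at 20 °C (*ssp-16* and *spe-41*) and 9 lower at 25 °C (*msp-63*, -1.59). Sums were 3925 to 4768 CPM in N2 and 4273 to 4927 CPM in mutants at 20 °C, and 4143 to 4796 and 3370 to 4114 CPM at 25 °C. At an unadjusted p under 0.05, 12 sperm genes were higher at 20 °C, and 24 were lower and 1 higher at 25 °C. With DESeq2, 3 were higher at 20 °C and 14 lower at 25 °C. In the interaction 41 of the 45 lay below 0 (median -0.48), with 3 lower past the edgeR threshold and 16 with DESeq2. Over all genes the interaction passed for 1.46% with edgeR, and with DESeq2 for 1009 of the 19758 that had any count. Of 6 intestinal genes, 3 were higher in mutants at 20 °C and 5 at 25 °C, where *ges-1* was lower, and sums were 3069 to 3785 and 3635 to 4436 CPM at 20 °C, and 3784 to 4230 and 4460 to 5332 CPM at 25 °C. Of 5 pharyngeal genes, 2 were higher at 20 °C and 4 at 25 °C, led by *tnt-4* (1.27 and 1.46), and sums were 355 to 451 and 468 to 577 CPM at 20 °C, and 334 to 512 and 777 to 821 CPM at 25 °C. Of 6 gonadal sheath genes, 0 passed between strains at either temperature with edgeR or with DESeq2, with 1 lower at 20 °C and 4 higher at 25 °C at an unadjusted p under 0.05, and sums of 127 to 145 and 117 to 130 CPM at 20 °C against 127 to 138 and 139 to 156 CPM at 25 °C. Of 5 body wall muscle genes, 2 were higher in mutants at 25 °C (*myo-3* and *unc-15*), with sums of 5602 to 7210 and 7764 to 8498 CPM, and 0 passed at 20 °C (1 higher at an unadjusted p under 0.05, 0 with DESeq2). Of 5 neuronal genes, 3 were higher at 25 °C (*rab-3*, *ric-4* and *snb-1*), with sums of 188 to 196 and 204 to 258 CPM, but 0 without any 1 of N2 replicates 2, 3 and 4 or mutant replicates 2 and 3. Of 6 hypodermal genes 1 was lower at 25 °C (*grd-10*, -0.63), with sums of 2386 to 2793 CPM in N2 and 1668 to 2549 CPM in mutants. At 20 °C 0 of the 5 tested passed with edgeR, and 1 was lower and 1 higher with DESeq2. The hypodermal sums there were 1396 to 2277 CPM in N2 and 1758 to 2893 CPM in mutants. Of 6 genes of molting larvae 0 passed between strains at either temperature with edgeR or DESeq2. At an unadjusted p under 0.05, 1 of the 6 was lower and 2 higher at 25 °C. Their median log2 fold change was -0.0056 at 20 °C and 0.49 at 25 °C.

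Between temperatures, 23% of all tested genes were higher at 25 °C in N2 and 13.6% in mutants. Lower were 22.1% in N2 and 11.9% in mutants. In these comparisons, 4 of 6 intestinal genes and 19 of 45 sperm genes were higher in N2 at 25 °C and 4 sperm genes lower. In mutants 3 intestinal and 5 of 5 pharyngeal genes were higher, with 3 sperm genes higher and 11 lower. All 8 meiotic germ cell genes had log2 fold changes below 0 in N2, with 1 past the threshold. In mutants 6 of the 8 were below 0, with 3 lower and 1 higher past the threshold. Their sums were 457 to 511 CPM at 20 °C and 428 to 445 CPM at 25 °C in N2. In mutants the sums were 442 to 467 CPM at 20 °C and 399 to 410 CPM at 25 °C. Body wall muscle had 1 of 5 genes higher in N2 and 4 of 5 in mutants, neurons 1 of 5 and 2 of 5, and the gonadal sheath 2 of 6 in mutants (*ceh-18* and *ipp-5*). In N2, 1 of 6 hypodermal genes was higher at 25 °C (*grd-10*, 1.20) and 1 lower (*lin-26*, -0.29), and in mutants 0 passed. Of 6 genes of molting larvae, 1 was higher at 25 °C in N2 with edgeR (median 0.13) and 0 with DESeq2. In mutants 1 was higher (*noah-1*, 0.89, edgeR FDR = 0.00434) and 0 of the 6 lay below 0 (median 0.72). Their sums in N2 were 42.4 to 62.2 CPM at 20 °C and 48.5 to 64.6 CPM at 25 °C. In mutants their sums were 47.2 to 50.4 CPM and 49.7 to 68.8 CPM. Of 10 genes first transcribed in the early embryo, none reached the filter, *med-1* and *tbx-35* were at 0 in all 15 libraries, and their summed level was 0.182 to 1.09 CPM.

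**Figure D4:**
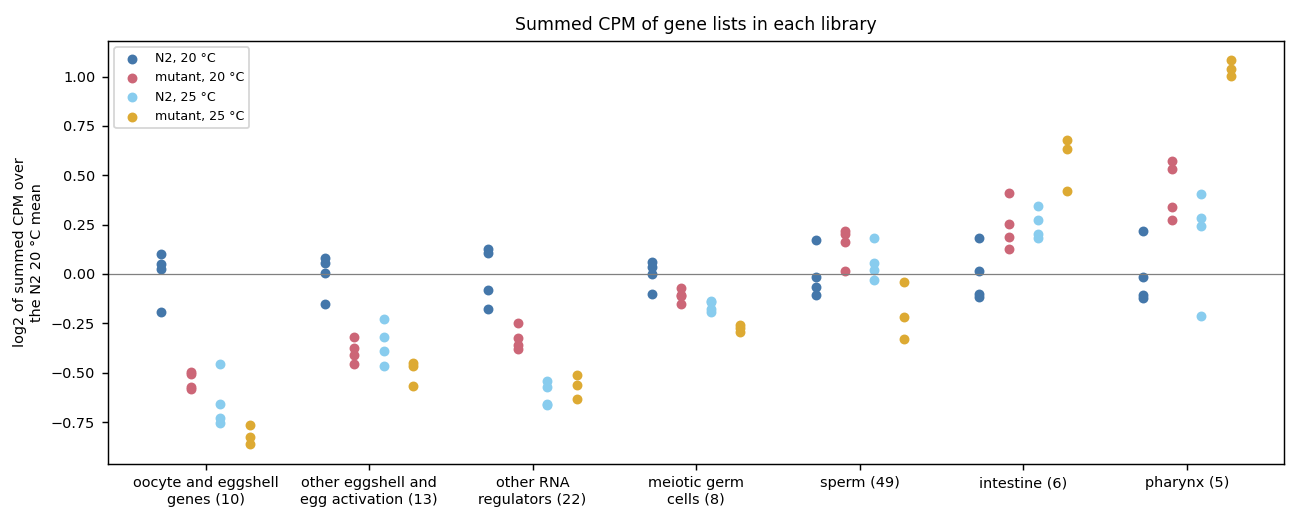
Summed CPM of 7 gene lists in each library as log2 of the ratio to the mean of N2 at 20 °C (vertical axis), with a point per library coloured by group. The sums of the 10 oocyte and eggshell genes are 4063 to 4985 CPM in N2 and 3106 to 3300 CPM in mutants at 20 °C, and 2757 to 3389 and 2555 to 2735 CPM at 25 °C, and the pharyngeal sum is highest in mutants at 25 °C.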

How the data were processed

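Polyadenylated RNA of whole young adults of N2 and *fbxa-215(syb4404)* mutants was sequenced without strand information in 15 libraries at 20 and 25 °C. Per the labels and the study's methods, the authors trimmed reads with Trimmomatic 0.39 and quantified genes with salmon 1.5.1 on WBcel235, and the deposited tables hold estimated counts per gene without normalization. The authors also deposited tables of their DESeq2 comparisons (version not given in the sources used here), with log2 expression values per library, a mean normalized signal, log2 fold changes and adjusted p-values: only their gene symbols were used. No column was left unassigned (0 columns).

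After rounding to whole numbers, these values entered edgeR 4.0.16 in R 4.3.3 (TMM normalization, robust quasi-likelihood F-test). The threshold was a Benjamini-Hochberg FDR under 0.05 over all genes tested. Low counts were filtered by filterByExpr at its defaults. These ask for about 10 counts in at least as many libraries as the smallest group holds, and 15 in total. The strain comparisons were fitted within each temperature, and the temperature comparisons and the interaction over all 15 libraries. The SE is the absolute log2 fold change divided by the square root of F. Exact permutation tests used log2(CPM + 1) and are two-sided, doubling the smaller tail. TPM used exon lengths of the Ensembl annotation of WBcel235, the source of the coordinates. Depth was 10842744 to 28391866 counts, and no 2 libraries of a group differed by as little as sampling noise. Tests were checked on simulated data.

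The alternatives tried were DESeq2 1.42.0, scaling by library size only or by relative log expression, dropping the low-count filter or requiring 10 counts in each library, fitting all 15 libraries together, a pseudocount of 0.1, the replicate number as a block, and leaving out each library. DESeq2 was run on all genes with any count and can leave genes without an adjusted p, so its totals may include genes not tested. The 10 genes and the gene lists were chosen with earlier results of these data known. All 10 are named. Of each other list, at most the 2 largest rises and 2 largest falls with no overlap between groups are named per comparison, with the 5 genes most like the 10 by each measure, and other genes were chosen after their values were seen.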

Additional observations from a re-analysis of the deposited data

Results flagged for a closer look

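The level of *oma-1* in mutant replicate 4 at 20 °C, 255 CPM, stood apart from the other 3 mutant libraries (206 to 209 CPM), with 0.928 of the range of its group lying between it and its nearest neighbour. It is the library with the most counts (28391866). The level of *egg-3* in N2 replicate 4 at 25 °C, 92.7 CPM, stood apart from 76.8 to 78.2 CPM in the same way (0.914 of the range). Of 30 groups examined, 2 were so marked, and chance marks about 1 in 20.

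The strain differences of *oma-2* and *cbd-1* differed between temperatures in the interaction test over the 15 libraries, by 0.61 and 0.69 on the log2 scale (edgeR FDR = 0.0336 and 0.032), with the mutants below N2 at 20 °C and within the N2 range at 25 °C. With the replicate number as a block neither passed (edgeR FDR = 0.077 and 0.0792). With each library left out, *oma-2* passed in 6 and *cbd-1* in 7 of the 15 fits.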

How the results depend on the processing

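The count of the 10 genes that passed kept within 1.5 times at 20 °C and in N2 between temperatures under each alternative, though with library size alone *oma-1* was lost from the former (8 genes) and *puf-11* from the latter (9 genes). With each library left out, members past the threshold numbered 0 to 8 for mutants against N2 at 25 °C, 3 to 8 for mutants between temperatures and 0 to 3 for the interaction. Under the replicate block they numbered 6 at 20 °C, 0 at 25 °C and 0 for the interaction. The labels do not say whether the replicate numbers pair the samples. Same-numbered libraries of the strains had deviations that correlated between -0.467 and 0.305 at 20 °C and -0.386 and -0.102 at 25 °C. With so few libraries per group, whose deviations are taken from their own mean, these values cannot decide it. Genes called over all genes (FDR under 0.05 and 2-fold, or FDR alone for the interaction) were 195 at 20 °C (110 with the replicate block, 104 to 298 without a library), 260 at 25 °C (148 with at least 10 counts in every library, 123 with the block, 127 to 524 without a library), 922 in N2 between temperatures (431 with at least 10 counts), 444 in mutants between temperatures (187 with at least 10 counts) and 205 for the interaction (1009 with DESeq2, 338 with at least 10 counts, 20 with the block, 12 to 1604 without a library). The cause was not tested.

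Values near 0 changed sign: *oma-2* at 25 °C (0.0133 with library size alone, 0.0451 with the replicate block, -0.0537 to 0.0364 without a library), *cbd-1* at 25 °C (0.0051 with the block), *oma-1* in mutants between temperatures (-0.0108 with relative log expression size factors, -0.0136 with DESeq2, -0.0193 with no filter, -0.0438 to 0.0904 without a library), and, without a library, the interaction of *rme-2* (-0.0521 to 0.149) and *puf-3* (-0.176 to 0.0576).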
